A study of Mus musculus with 30 samples.

Results

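Immediate early genes are genes that neurons transcribe quickly when they are stimulated, before any new protein has to be made. Many of their products are transcription factors, which turn on a later set of genes, and others act at synapses. In the striatum they are known as readouts of dopamine and glutamate signalling and of handling, arousal and drugs given shortly before death. The 10 genes described here were taken from a list of activity-induced genes: Fos, Fosb, Junb, Egr1, Egr2, Egr4, Arc, Npas4, Nr4a1 and Ier2. The rule names the genes and uses no measured value, but earlier results of these data were known when the list was drawn up. All 10 were in the count tables, among 53278 genes of the subventricular zone (SVZ) and 50508 of the striatum, and all 10 had more than 1 CPM (count per 1e6 counts of a library) in at least 3 libraries of each tissue, as did 16375 and 15419 genes.

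The SVZ and the striatum of 15 C57Bl/6 mice were sequenced, with 1 library per mouse and tissue, to compare mice that had lost their endogenous neural precursor cells with mice that kept them. NestinTK+ mice carry a viral thymidine kinase under the second-intron enhancer of Nestin, which is active in neural precursor cells, and ganciclovir (GCV) is toxic to dividing cells that hold this enzyme. The 5 ablated mice were NestinTK+GCV+ (A1 to A5). The 10 control mice were 3 NestinTK-GCV+ (G1 to G3), 3 NestinTK-PBS+ (P1 to P3) and 4 NestinTK+PBS+ (T1 to T4), so that controls lacked the transgene, the drug or both, and vehicle (PBS) replaced the drug. GCV and PBS were both given under the skin. Mice are named by a letter for the group and by the order of their numbers in the labels. Within a tissue each library came from a separate mouse, and the p-values below measure the spread between these mice.

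SVZ libraries were made with a kit that amplifies whole transcripts and held 8.36 to 21.1 M counts (M, 1e6), with 8.36 to 9.60 M in the ablated mice. Striatum libraries count the 3′ ends of transcripts and held 2.63 to 4.69 M counts, with 2.63 to 3.37 M in the ablated mice. The labels describe the SVZ samples as neural precursor cells, but the libraries were tissue: the 15 markers of medium spiny neurons, the principal striatal neurons, summed to between 6244 and 19460 CPM there, against 6481 to 16454 CPM in the striatum. In tissue, fewer cells of a type and less RNA per cell cannot be told apart. Medium spiny markers were lowest in the SVZ of mice A5, G2 and T2, at 6244, 7472 and 8961 CPM against at least 11071 CPM in the other 12 libraries, and in the striatum of mouse T2, at 6481 CPM against at least 12309 CPM. The choroid plexus transcript Ttr reached 9.88% of the SVZ counts in mouse P1, 9.83% in T3 and 4.49% in P2, all of them controls, and stayed at or below 0.0789% in the rest. All NestinTK-PBS+ mice had numbers of the 34 series and all ablated mice of the 40 series, and library numbers of GCV-treated mice all preceded those of PBS-treated mice, so that neither the series nor the library order can be told apart from these groups.

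The members are of several kinds. Fos, Fosb and Junb encode subunits of AP-1, a transcription factor made of pairs of Fos and Jun proteins. Egr1, Egr2 and Egr4 encode zinc finger transcription factors that bind GC-rich sites. Nr4a1 encodes an orphan nuclear receptor, and Npas4 a transcription factor of neurons that responds to calcium entry. Arc encodes a protein of synapses that takes part in the removal of glutamate receptors. Ier2 encodes a nuclear protein induced by growth factors.

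In GENCODE annotation of GRCm38, Fos lies on chromosome 12 from 85473890 to 85477273 on the plus strand and Egr4 on chromosome 6 from 85511121 to 85513589 on the minus strand. Arc lies on chromosome 15 from 74669083 to 74672570 on the minus strand, and Nr4a1 on the same chromosome from 101254269 to 101274795 on the plus strand. Egr2 is on chromosome 10 (67535475 to 67542188, plus strand) and Ier2 on chromosome 8 (84661331 to 84662852, minus strand). No other gene shares exon bases with 9 of the members, while Junb shares some with Prdx2, on the opposite strand. SVZ libraries of this kit do not keep the strand, so that reads in the shared bases cannot be assigned to either gene. Promoter windows of 250 bases before the transcription start were found for 7 of the 10 members among 32851 RefSeq windows (GRCm38.p6), with no entry for Arc, Ier2 and Egr1. The windows of Fos and Egr4 are shown because these genes moved closely together across SVZ libraries, as described below, and both windows hold TGACGT, the core of the site bound by CREB, a factor through which cAMP and calcium signals act on transcription. Capitals mark TGACGT on either strand, the minus strand match reading ACGTCA. The Fos window is chr12:85473640-85473889 on the plus strand and that of Egr4 is chr6:85513590-85513839 on the minus strand.
Fos: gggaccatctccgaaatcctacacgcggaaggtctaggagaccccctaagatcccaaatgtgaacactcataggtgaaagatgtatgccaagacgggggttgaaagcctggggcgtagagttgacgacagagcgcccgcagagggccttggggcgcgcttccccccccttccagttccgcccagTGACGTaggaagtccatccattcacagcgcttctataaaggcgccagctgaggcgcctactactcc
Egr4: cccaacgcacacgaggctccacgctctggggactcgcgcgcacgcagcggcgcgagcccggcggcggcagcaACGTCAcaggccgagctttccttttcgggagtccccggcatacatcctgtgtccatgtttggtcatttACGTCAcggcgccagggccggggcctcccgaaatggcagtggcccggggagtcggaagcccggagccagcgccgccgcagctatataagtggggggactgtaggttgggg
The match in Fos starts 66 bases before the transcription start, and those in Egr4 178 and 110 bases before it. TGACGT was found in the windows of 4 of the 7 members, Fos, Egr4, Egr2 and Npas4, and in 6.47% of all windows. These letters, the first part of TGACGTCA, were chosen after the windows had been read. The whole site TGACGTCA was in none of the 7 members' windows and in 1.55% of all windows. The AP-1 site TGANTCA was likewise in none of the 7 and in 6.75% of all windows. The Egr site GCGNGGGCG was in the windows of Fosb and Nr4a1 and in 4.7% of all windows, and the CArG box, the site of serum response factor, in that of Egr2 and in 1.47% of all windows. Both strands were searched. A match is a description of the letters and not of binding. The pair shown was picked for its r and its letters together. The other pairs of the 4 genes with TGACGT had SVZ r values of 0.477 (Fos with Egr2), 0.764 (Fos with Npas4), 0.713 (Egr2 with Egr4), 0.441 (Egr2 with Npas4) and 0.771 (Egr4 with Npas4). The median over all 45 pairs of members was 0.669. Any part of these letters in the movement of the genes was not tested.

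Egr1 was the most abundant member in both tissues and varied least among them within groups. In the SVZ, where reads cover whole transcripts, levels were compared in CPM per kb of exon, and the medians over 15 libraries ran from 60.9 for Egr1 through 40.8 for Junb, 22.8 for Egr4, 22.4 for Arc, 8.32 for Fos, 7.83 for Nr4a1, 6.20 for Npas4, 3.03 for Ier2 and 2.21 for Egr2 to 2.02 for Fosb. Neighbours in this order often changed places between mice. Egr1 was above Junb in 11 of 15 libraries and Egr4 above Arc in 6, with log2 differences of 0.41 ± 0.63 and -0.08 ± 0.79 (SD, n = 15), while Arc was above Fos in all 15. In the striatum, where counts come from 3′ ends and are not divided by length, median CPM was 504 for Egr1, 159 for Egr4, 89.9 for Junb, 30.6 for Arc and 29.2 for Nr4a1. Npas4 followed at 16.3, Fosb at 9.26, Fos at 6.31, Egr2 at 5.66 and Ier2 at 3.70. The first 3 steps of the striatal order held in 15 of 15 libraries each, but Arc was above Nr4a1 in only 8. CPM between genes of the striatum also depends on how well each 3′ end is captured.

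**Figure D1:**
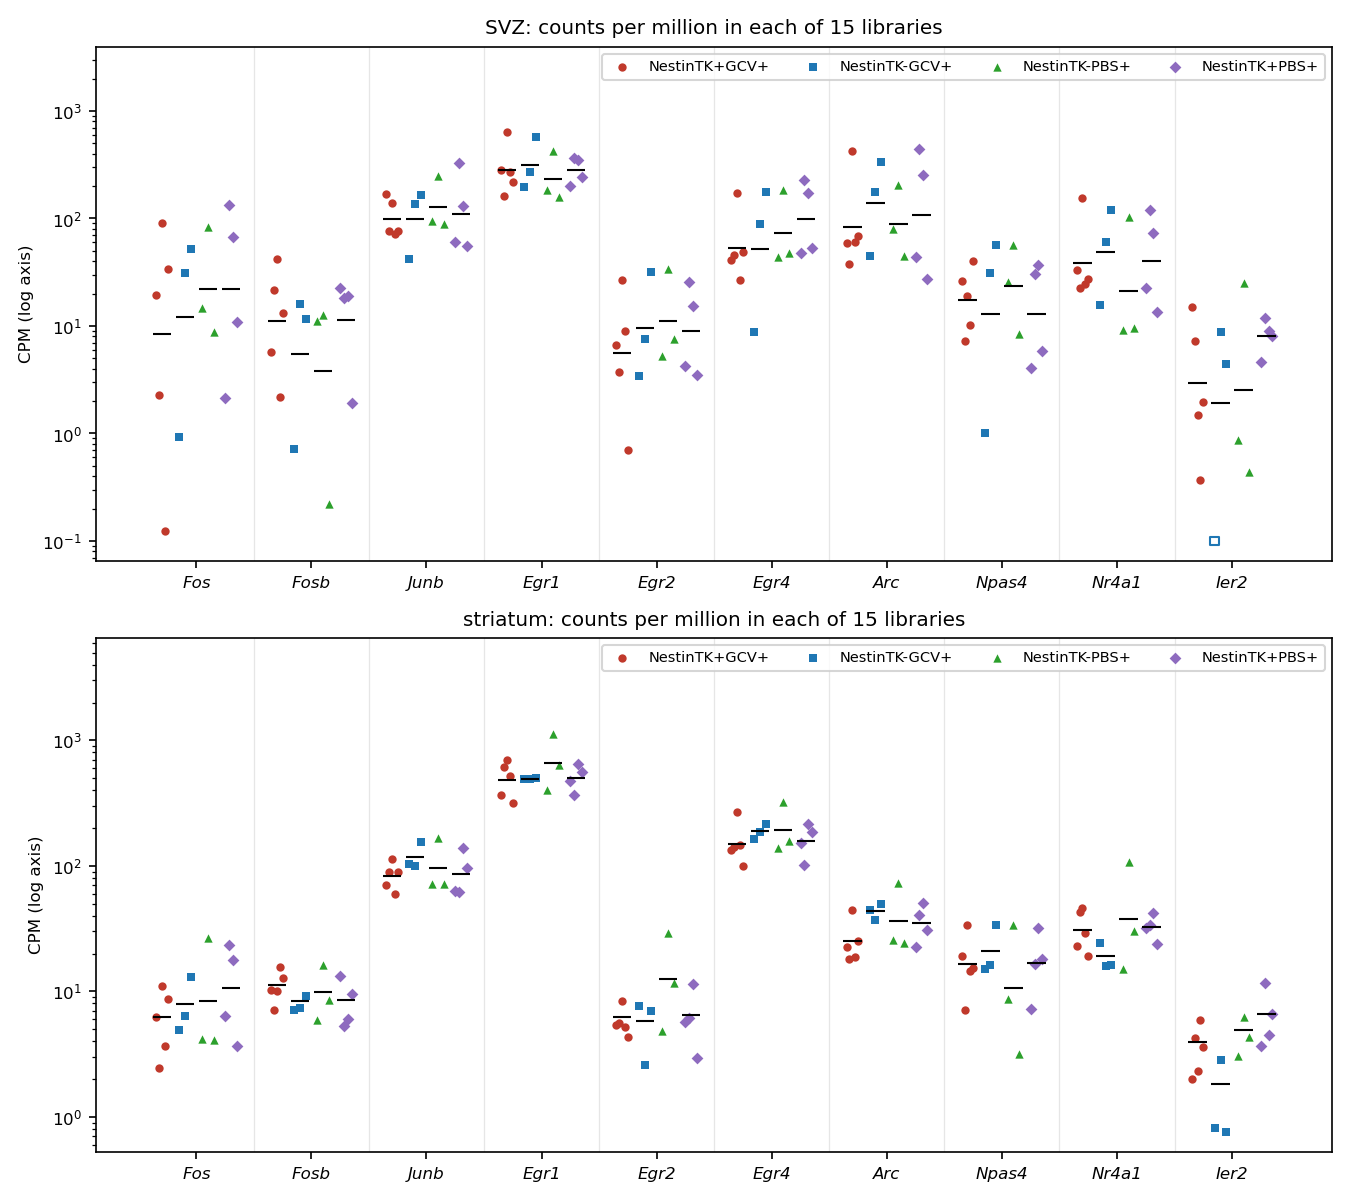
CPM (log axis) of each of the 10 members in every library, by group and tissue; each point is 1 mouse, horizontal lines are geometric means of groups, and the open square stands for a count of 0. For all 10 members the ablated mice lie within or across the range of control mice in both tissues, and SVZ values spread more widely than striatal ones.

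Levels of the AP-1 genes in the SVZ ran over a wide range within every group. Fos was at 19.6, 2.28, 90.1, 0.123 and 33.8 CPM in ablated mice A1 to A5. In control mice it ran from 0.934 to 133 CPM with a median of 23.0 (n = 10). The lowest values, in mice A4 and G1, and the highest, in mice T2 and A3, came from both sides, so that the groups overlapped. The lowest Fos library held 1 count and the highest 1904. Fosb was at 5.66, 21.7, 42.0, 2.21 and 13.3 CPM in the same 5 ablated mice and between 0.220 and 22.4 CPM in control mice (median 12.1). Junb was at 168, 75.6, 140, 71.1 and 76.7 CPM against 42.1 to 331 CPM (median 112). No AP-1 subunit separated ablated from control mice.

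The other members overlapped as widely in the SVZ. Egr1 was at 284, 162, 635, 273 and 217 CPM in ablated mice A1 to A5 and at 158 to 577 CPM in control mice (median 257). Arc was at 59.6, 38.1, 428, 60.2 and 68.5 CPM against 27.5 to 447 CPM (median 128). Nr4a1 was at 33.2, 22.3, 156, 24.6 and 27.5 CPM against 9.20 to 119 CPM (median 41.6). In all 3 genes mouse A3 was the only ablated mouse far above the rest, and its Nr4a1 and Egr1 values were the highest of all 15 libraries. Egr4 ran from 27.0 to 173 CPM in ablated and from 8.83 to 225 CPM in control mice, Egr2 from 0.697 to 26.6 and from 3.45 to 33.9 CPM, and Npas4 from 7.32 to 40.6 and from 1.01 to 57.2 CPM. Ier2 ran from 0.368 to 15.1 CPM in ablated mice and from 0, in mouse G1, to 25.3 CPM in control mice.

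No member passed the test for a difference between ablated and control mice in the SVZ. A call took a 2-fold or larger difference with an unadjusted p-value no higher than 0.01 in edgeR's quasi-likelihood test, and 0 of 10 members were called against 1.59% of the genes tested. At an unadjusted p-value under 0.05 there were also 0 members, against 9.81% of genes. The log2 fold changes (ablated minus control) were -0.47 ± 0.99 (SE) for Fos, 0.58 ± 0.78 for Fosb and -0.35 ± 0.41 for Junb. They were 0.08 ± 0.31 for Egr1, -0.56 ± 0.75 for Egr2 and -0.64 ± 0.57 for Egr4. Arc was at -0.33 ± 0.66, Npas4 at -0.32 ± 0.68, Nr4a1 at -0.04 ± 0.64 and Ier2 at -0.49 ± 1.05. The median over the members was -0.34, with 8 of 10 below 0, where the median of all genes tested was -0.03 and 51.9% of genes were below 0. The median of the members moved with the samples used: it was -0.73 without ablated mouse A3, -0.68 in mice of the number series 40 alone, -0.072 without control mouse T2 and -0.031 without the 3 libraries lowest in medium spiny markers, the last being an alternative added after seeing the data. The 95% intervals were wide: that of Fos ran from -2.53 to 1.59 and that of Egr1, the narrowest, from -0.58 to 0.73, so that 2-fold differences could not be detected for most members at this spread. Without ablated mouse A3 the change was -1.54 for Arc and -1.53 for Fos, and neither was called.

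In the striatum, Arc had the smallest p-value of the members, and it was not called. Arc was at 22.7, 18.0, 44.9, 18.9 and 25.4 CPM in ablated mice A1 to A5, and at 22.6 to 73.4 CPM in control mice with a median of 38.8 (n = 10). Ablated mice other than A3 lay at the low end of the controls, and the ranges overlapped. The log2 fold change was -0.62 ± 0.26 (SE), with a 95% interval from -1.15 to -0.09, an unadjusted p-value of 0.0242 and an adjusted p-value of 0.388 by edgeR. Over the mice left out in turn the change stayed between -0.91 (without ablated mouse A3) and -0.47 (without control mouse P2), with adjusted p-values of 0.153 to 0.667.

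Fos was at 6.24, 2.47, 11.0, 3.70 and 8.71 CPM in the striatum of the same ablated mice and at 3.69 to 26.5 CPM in control mice (median 6.34). The 4 values above the highest ablated mouse belonged to control mice P2, T2, T3 and G3, and the remaining controls lay among the ablated mice. Its log2 fold change of -0.77 ± 0.47 had an adjusted p-value of 0.607. Junb ran from 59.6 to 113 CPM in ablated and from 62.2 to 165 CPM in control mice, Egr1 from 316 to 693 and from 366 to 1133 CPM, and Egr4 from 99.8 to 269 and from 101 to 325 CPM. Npas4 ran from 7.05 to 33.6 CPM in ablated and from 3.15 to 34.03 CPM in control mice. Each of these pairs of ranges overlapped. The log2 fold changes were -0.28 ± 0.22 for Junb, -0.19 ± 0.21 for Egr1, -0.22 ± 0.22 for Egr4 and -0.04 ± 0.40 for Npas4. Fosb was at 0.32 ± 0.26, Egr2 at -0.63 ± 0.43, Nr4a1 at -0.10 ± 0.36 and Ier2 at -0.30 ± 0.48.

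Of the 10 members 0 were called in the striatum, against 0.694% of genes tested, and 1, Arc, had an unadjusted p-value under 0.05, against 10.5% of genes. The median over the members was -0.25 with 9 of 10 below 0, where the median of all genes was 0.0037 and 49.5% of genes were below 0. The members share their libraries and moved together, as described below, so that 9 of 10 in 1 direction are not 9 separate observations. With the 3 NestinTK-PBS+ mice as the only controls 1 member, Egr2, was called at a log2 change of -1.39.

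**Figure D2:**
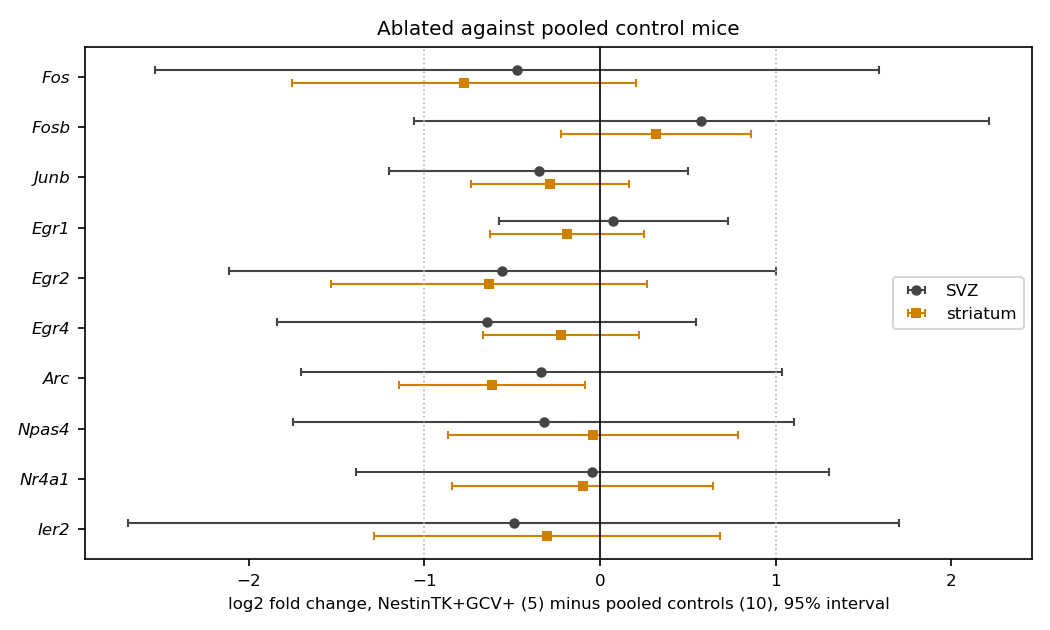
Log2 fold change of each member in ablated mice against pooled control mice in SVZ and striatum, with 95% intervals from edgeR. In the SVZ every interval includes 0; in the striatum only that of Arc (-1.15 to -0.09) does not.

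The difference of the ablation effect between the tissues was tested in the same mice, as the SVZ minus striatum difference of log2 CPM of each mouse. Of the 10 members 0 were called, against 2.15% of 14197 genes, with unadjusted limma p-values from 0.482 (Egr1) to 0.958 (Nr4a1). The difference was -0.58 ± 0.90 (SE) for Fos and 0.21 ± 0.29 for Egr1. These standard errors leave room for differences of 2-fold or more in Fos.

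Genotype and treatment were then taken apart. In the SVZ 0 of 10 members were called in any contrast of the 4 groups, against 0.94% of genes for NestinTK+GCV+ minus NestinTK-GCV+, 1.19% for NestinTK+GCV+ minus NestinTK+PBS+, 1.06% for NestinTK-GCV+ minus NestinTK-PBS+, 0.195% for NestinTK+PBS+ minus NestinTK-PBS+ and 0.837% for the interaction of genotype and treatment. In the test of any difference among the 4 groups 0 members were called against 1.35% of genes. No member had an unadjusted p-value under 0.05 in any of these, against 7.45%, 7.13%, 7.65%, 2.69%, 5.09% and 7% of genes, in the same order. Each group held SVZ libraries with high and with low levels: Arc was at 109 to 192 CPM as a mean of a group, with standard deviations of 83.2 to 198 CPM.

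In the striatum, Nr4a1 was lower in NestinTK-GCV+ than in NestinTK-PBS+ mice, and this difference rested on 1 mouse. Nr4a1 was at 24.5, 15.8 and 16.3 CPM in the NestinTK-GCV+ mice G1 to G3 and at 15.0, 108 and 30.5 CPM in the NestinTK-PBS+ mice P1 to P3. It was at 32.0, 33.6, 41.7 and 24.0 CPM in the 4 NestinTK+PBS+ mice and at 23.0, 42.6, 45.9, 29.2 and 19.2 CPM in the ablated mice. Mouse P2 stood far above all others, and the lowest of the 15 values, from mouse P1, belonged to the same group. The log2 difference was -1.44 ± 0.45 (SE), with a nominal p-value of 0.00359 and an adjusted p-value of 0.0907 by edgeR, which made Nr4a1 the 1 member of 10 called in this contrast, against 2.46% of genes. Without mouse P2 it was -0.27, with an adjusted p-value of 0.821. The call was also lost, at a difference of similar size, with DESeq2 (-1.44), without mouse G2 (-1.33) or mouse G3 (-1.35), and with the mouse number series as a covariate (-1.29). The interaction of genotype and treatment for Nr4a1 was 1.40 ± 0.58, with an unadjusted p-value of 0.0232 and an adjusted p-value of 0.244, and without mouse P2 it was 0.23. No member was called for the interaction, against 3.28% of genes.

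Egr2 showed the same dependence on that mouse. It was at 4.80, 29.3 and 11.6 CPM in the NestinTK-PBS+ mice P1 to P3, at 7.61, 2.60 and 7.01 CPM in the NestinTK-GCV+ mice, at 5.66, 6.14, 11.5 and 2.95 CPM in the NestinTK+PBS+ mice and at 5.39, 5.64, 8.31, 5.18 and 4.35 CPM in the ablated mice. Apart from mouse P2 all groups overlapped. Its log2 difference was -1.41 ± 0.51 for NestinTK-GCV+ minus NestinTK-PBS+ (adjusted p = 0.155) and -1.19 ± 0.47 for NestinTK+PBS+ minus NestinTK-PBS+ (adjusted p = 0.748). Without mouse P2 these were -0.52 and -0.30. No member was called in the second of these contrasts, against 0.83% of genes.

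Ier2 was the member whose variation lay most between groups in the striatum, at low counts. It was at 0.816, 2.83 and 0.751 CPM in the NestinTK-GCV+ mice G1 to G3 and at 3.05, 6.20 and 4.36 CPM in the NestinTK-PBS+ mice. It was at 3.70, 11.7, 4.46 and 6.64 CPM in the NestinTK+PBS+ mice and at 1.99, 4.23, 2.33, 5.92 and 3.63 CPM in the ablated mice. The NestinTK-GCV+ mice lay below both PBS groups without overlap, and overlapped with the ablated mice. The margin was narrow, with 12 counts (2.83 CPM) in mouse G2 against 14 counts (3.05 CPM) in mouse P1. How many of all genes tested part these mice was not counted, so that this separation has no background to be set against. Libraries held 3 to 44 Ier2 counts, with 3 counts in mice G1 and G3. In the test of any difference among the 4 groups Ier2 had a nominal p-value of 0.00892 and an adjusted p-value of 0.137, which made it the 1 member called, against 6.97% of genes, and 59.7% of its variance on the log2 scale lay between groups. The log2 difference of NestinTK-GCV+ minus NestinTK-PBS+ was -1.58 ± 0.60 (adjusted p = 0.173), with -2.48 to -1.27 as each mouse was left out, and that of NestinTK+GCV+ minus NestinTK-GCV+ was 1.24 ± 0.57 (adjusted p = 0.252). The nominal p-value of the 4-group test lay just under 0.01, and with 1 mouse left out it was above 0.01 in 10 of 15 cases, namely without A1, A2, A3, A5, G1, G3, P2, P3, T2 or T4.

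Arc in the striatum was at 44.6, 37.1 and 49.3 CPM in the NestinTK-GCV+ mice, against 18.0 to 44.9 CPM in the ablated mice, which overlapped through mouse A3 alone. The log2 difference of NestinTK+GCV+ minus NestinTK-GCV+ was -0.75 ± 0.32, with an unadjusted p-value of 0.0289 and an adjusted p-value of 0.217. Without mouse A3 it was -1.04 and passed the thresholds for a call. Of the members 0 were called in this contrast with all mice, against 2.1% of genes, and 0 in that of NestinTK+GCV+ minus NestinTK+PBS+, against 1.35%. In the latter, Fos was at -0.995 ± 0.543 and Ier2 at -0.88 ± 0.45.

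Mice of the same group differed widely in the members. Within groups the standard deviation of log2 CPM had a median of 1.56 over the members in the SVZ, against 0.985 over all genes tested, and of 0.590 against 0.385 in the striatum. Compared with genes of similar level (within 0.5 log2 CPM), 8 of the 10 members in each tissue were among the 10% most variable. The exceptions were Egr2 and Ier2 in the SVZ and Fosb and Ier2 in the striatum. Arc in the SVZ, with a standard deviation of 1.52, had no gene above it among 1390 of similar level. Fos had the largest standard deviation of the members in both tissues, 2.84 in the SVZ and 1.04 in the striatum, and Egr1 the smallest, 0.68 and 0.47. The share of variance between the 4 groups had a median of 6.85% over members in the SVZ, against 20.5% over all genes, and of 16.7% against 26.6% in the striatum.

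The same mice were high for many members at once. Each member's log2 CPM was centred on its mean over the 15 libraries of a tissue and divided by its standard deviation, and these scores were averaged over the 10 members of a mouse. In the striatum mouse P2 (NestinTK-PBS+) was highest at 1.90. It held the highest value of 8 members and was among the 3 highest for all 10. Mice T3 (NestinTK+PBS+) and A3 (ablated) followed at 0.70 and 0.65, and mouse P1 was lowest at -0.75. In the SVZ mice T2 (NestinTK+PBS+), P2, G3 (NestinTK-GCV+) and A3 stood close together at 1.13, 1.07, 0.98 and 0.96. Mouse G1 (NestinTK-GCV+) was lowest at -1.47, with the lowest value of 4 members and among the 3 lowest for 7. High and low mice thus came from every group: 2 of 5 ablated, 2 of 3 NestinTK-GCV+, 1 of 3 NestinTK-PBS+ and 2 of 4 NestinTK+PBS+ mice had an SVZ mean above 0, and 1 mouse of each group had a striatal mean above 0.

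The SVZ libraries fell on either side of a gap in Arc, and Egr4 and Nr4a1 did not overlap between the same mice. In mice A3, G2, G3, P2, T2 and T3 Arc ran from 176 to 447 CPM, against 27.5 to 79.7 CPM in the other 9 mice. Egr4 ran from 89.5 to 225 CPM in these 6 mice and from 8.83 to 53.2 CPM in the 9, and Nr4a1 from 60.6 to 156 and from 9.20 to 33.2 CPM. The upper side thus held 1 of 5 ablated, 2 of 3 NestinTK-GCV+, 1 of 3 NestinTK-PBS+ and 2 of 4 NestinTK+PBS+ mice. The other 7 members overlapped between the sides, as Egr1 did with 273 to 635 CPM above and 158 to 284 CPM below, and in the striatum all 10 members overlapped between the same mice. The split was made after the values were seen, at the widest gap of Arc, and was not tested. Arc thus parts the sides by construction. The share of all genes tested that part the same mice was not counted, so that the separation of Egr4 and Nr4a1 has no background to be set against.

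**Figure D3:**
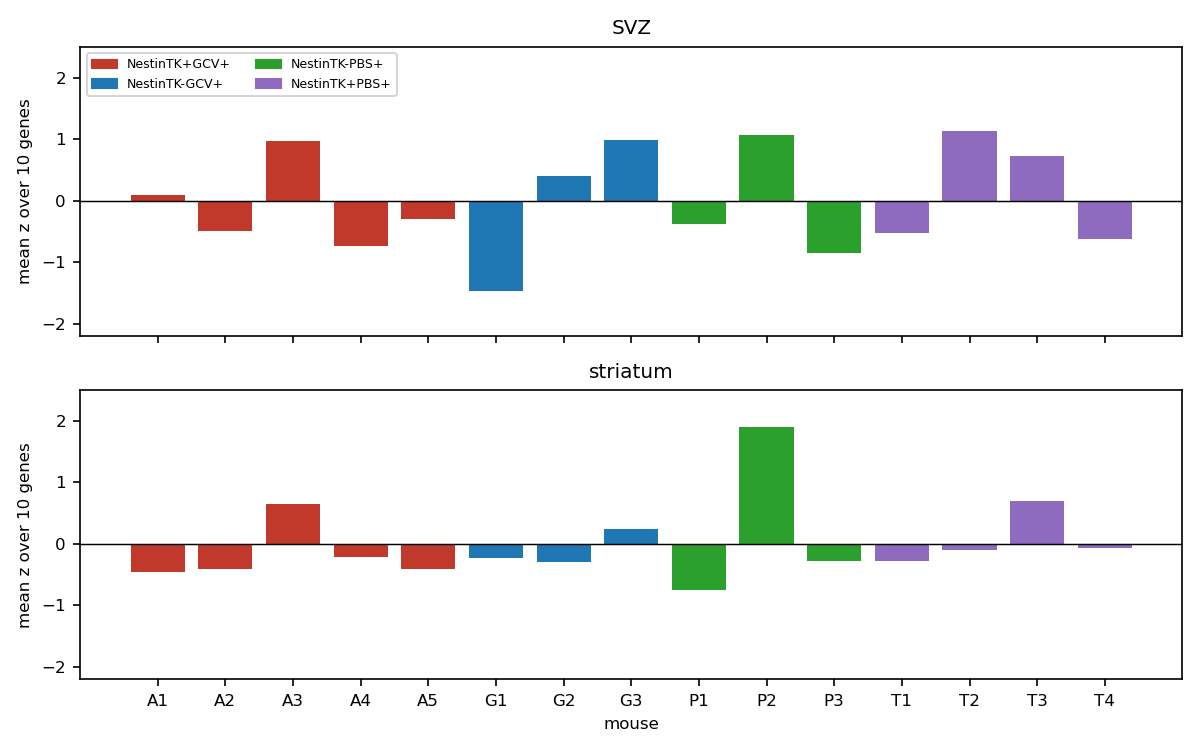
Mean standardized level of the 10 members in each mouse, by group, for SVZ and striatum. Mouse P2 stands apart in the striatum at 1.90, and in the SVZ each of the 4 groups holds a mouse above 0.9 and a mouse below 0.

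Values that could move with such a mean were set beside it. Over the 15 libraries its Pearson correlation with the total count was -0.101 in the SVZ and 0.096 in the striatum, and that with the summed medium spiny neuron markers -0.049 and 0.070. That with the share of mitochondrial counts was -0.297 and -0.346, and that with the summed oligodendrocyte markers -0.524 and 0.249. Spearman's rho was -0.268 and -0.554 for the mitochondrial share, and -0.611 and 0.139 for the oligodendrocyte markers. It was -0.05 and -0.018 for the total count, and -0.175 and 0.129 for the medium spiny markers. The mice with few medium spiny markers in the SVZ took positions 8 (A5), 6 (G2) and 1 (T2) among the 15. The part of these quantities in the members' levels was not tested.

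The members moved together across libraries, more closely in the SVZ than in the striatum. Among the 45 pairs of members, Pearson's r of log2 CPM over the 15 SVZ libraries had a median of 0.669 and a range from 0.258 to 0.905. Of these pairs 37 had an r of at least 0.5, against 3.97% of all pairs of genes tested, and 0 were below 0. In the striatum the median was 0.376, with a range from -0.345 to 0.858, and 17 pairs reached 0.5, against 5.25% of all pairs, while 5 were below 0. Spearman's rho had medians of 0.664 and 0.279. Unadjusted permutation p-values were under 0.05 for 35 pairs in the SVZ and 16 in the striatum. All pairs share the same 15 libraries, and pairs of 1 gene share that gene.

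The movement in the SVZ was present within groups. After the mean of each of the 4 groups was removed the median r was 0.731 in the SVZ and 0.506 in the striatum. Among the 10 mice of the number series 40 it was 0.659 and 0.144, and the 34 series held too few mice for a value. Leaving out 1 mouse at a time gave medians from 0.620 (without G1) to 0.709 in the SVZ. In the striatum it gave 0.0908 without mouse P2, with 10 pairs at 0.5 or above, and up to 0.461 without mouse G3, with 22 pairs. The closeness of the members in the striatum therefore rested largely on mouse P2. With the 2 libraries farthest from the median of the first gene of a pair left out, the medians were 0.650 and 0.167.

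In the SVZ the 3 closest pairs were Egr1 with Nr4a1 (r = 0.905, rho = 0.921, permutation p = 1e-05, the smallest that 100000 permutations can give), Arc with Nr4a1 (r = 0.903, rho = 0.807, permutation p = 2e-05) and Egr1 with Arc (r = 0.849). Without the 2 farthest libraries the first 2 of these r values were 0.874 and 0.856. Among the 6 mice above the SVZ Arc gap the 3 values were 0.878, 0.821 and 0.624, and among the 9 below it 0.583, 0.137 and 0.164. The cut on Arc narrows its range within each side and can lower the r of pairs with Arc there by construction. Fos and Egr4, whose promoter windows are shown above, had an r of 0.843 and a rho of 0.868 (permutation p = 3e-05). Their r was 0.822 without the 2 farthest libraries, 0.894 in the mice above the gap and 0.574 in those below. In the striatum the same pair had an r of 0.348 (permutation p = 0.21). The loosest SVZ pairs were Fosb with Egr2 (r = 0.258), Egr2 with Ier2 (r = 0.319) and Arc with Ier2 (r = 0.331). In the striatum the closest were Egr1 with Egr4 (r = 0.858, rho = 0.800, permutation p = 7e-05), Fos with Arc (r = 0.797, permutation p = 0.00046) and Junb with Arc (r = 0.793, permutation p = 0.00047). Without the 2 farthest libraries these r values were 0.710, 0.739 and 0.660. The lowest were the pairs of Ier2 with Junb (r = -0.345), Egr4 (r = -0.204) and Npas4 (r = -0.167). These pairs were picked as the highest and lowest of 45, except for that of Fos and Egr4.

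Arc had the highest median r with the other members in both tissues, by margins too small to rank it above the next. Its median r with the other 9 members was 0.778 in the SVZ, next to 0.771 for Egr4 and 0.767 for Junb, and 0.560 in the striatum, next to 0.557 for Egr2 and 0.539 for Egr4. Fosb was the loosest in the SVZ at 0.532, and Ier2 and Fosb in the striatum at 0.049 and 0.140. Neighbouring values such as those of Arc, Egr4 and Junb differed by less than leaving out a mouse moved the median over pairs.

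**Figure D4:**
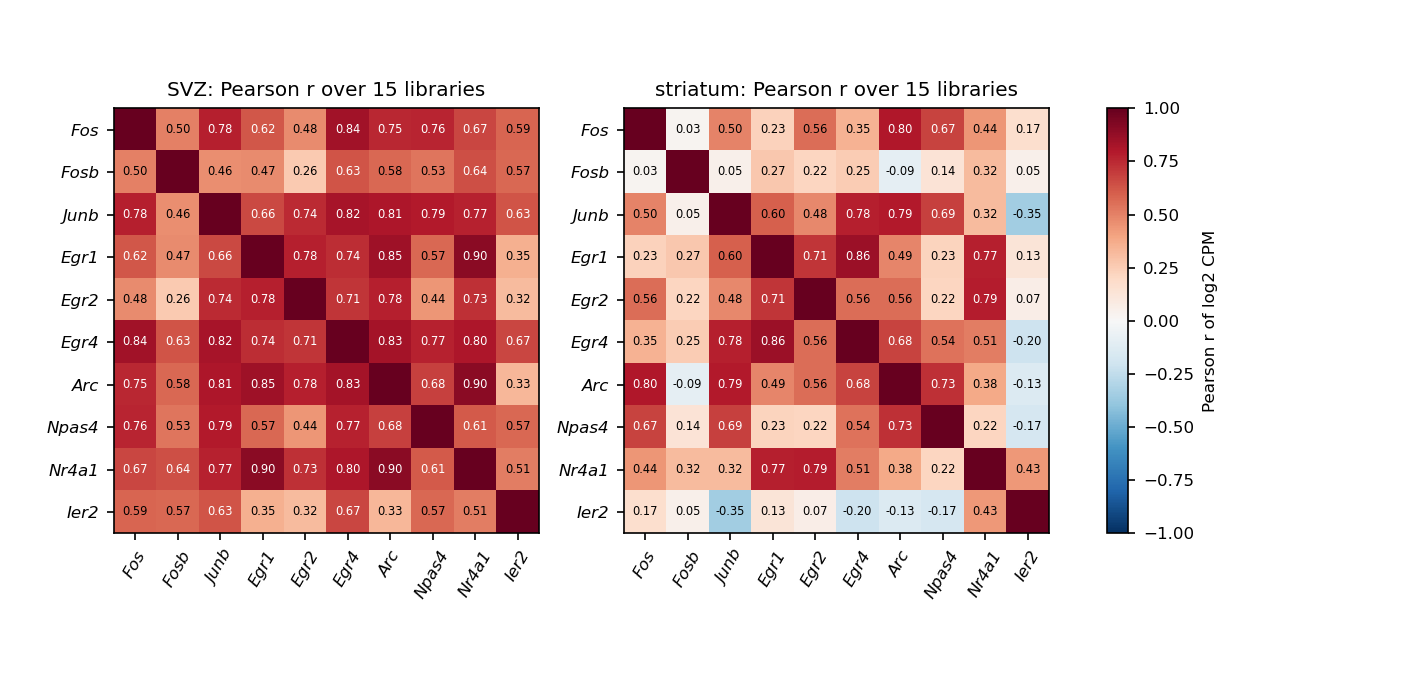
Pearson's r of log2 CPM for every pair of the 10 members over the 15 libraries of the SVZ and of the striatum; the colour scale runs from negative to positive r. Every SVZ pair is above 0, the closest being Egr1 with Nr4a1 (0.905), whereas 5 striatal pairs are below 0, the lowest being Junb with Ier2 (-0.345).

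The levels of some members in the SVZ of a mouse went with those in its striatum, in libraries made with different kits. The SVZ libraries also held the markers of medium spiny neurons described above, so that the 2 tissues are not wholly distinct in their cells. The part of this in the r values between tissues was not tested. Over the 15 mice Fos had an r of 0.768 between tissues (permutation p = 0.00096) and a rho of 0.836 (permutation p = 0.00025), and r was 0.836 without the 2 farthest mice. This was the 18th highest r among the 14197 genes tested in both tissues. Arc had an r of 0.701 (permutation p = 0.0046), a rho of 0.668 (permutation p = 0.0081) and an r of 0.712 without the 2 farthest mice, and stood 70th. The 6 mice above the gap in SVZ Arc had 37.1 to 73.4 CPM of Arc in the striatum, and of the other 9 only mouse G1, at 44.6 CPM, reached that range. Within these sides the r of Arc between tissues was -0.27 in the 6 mice and -0.19 in the 9. The sides were cut on SVZ Arc itself, which narrows its range within each side and can lower r by construction. These values therefore cannot decide whether Arc moved together in the tissues within a side. For Fos the r within the sides was 0.777 and 0.441. Egr2 had an r of 0.546 (permutation p = 0.036), which was 0.383 without the 2 farthest mice, so that it rested in part on them. Npas4 had an r of 0.502 (permutation p = 0.056) and a rho of 0.643 (permutation p = 0.012). Of the 10 members 4 had an r of at least 0.5, against 4.8% of genes, and 3 had a permutation p-value of r under 0.05.

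The remaining members had r values between tissues of 0.406 (Egr4), 0.376 (Ier2), 0.370 (Nr4a1), 0.290 (Egr1), 0.253 (Junb) and -0.051 (Fosb), with permutation p-values of 0.13 or more. The median over the 10 was 0.391, where the median of all genes was 0.041. After removal of group means, r was 0.758 for Fos and 0.735 for Arc, and among the 10 mice of the 40 series it was 0.817 and 0.828. The mean standardized level of a mouse had an r of 0.613 and a rho of 0.411 between tissues, and an r of 0.582 without mouse P2. The test of the difference between r values of members was not made.

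**Figure D5:**
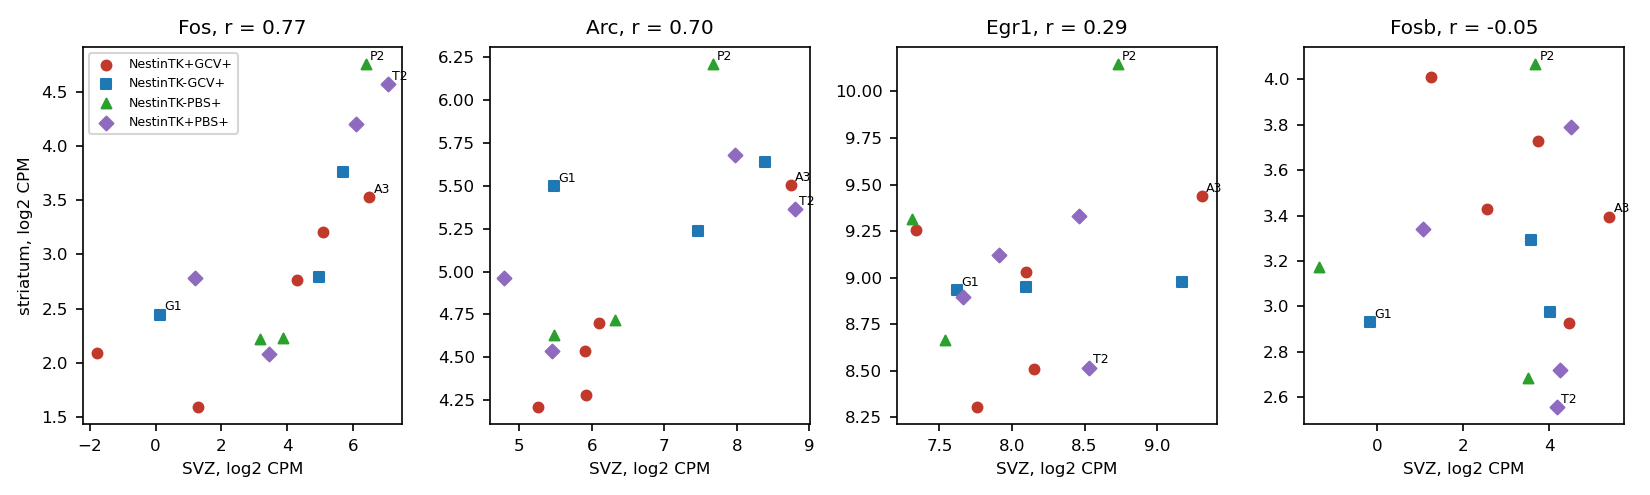
Log2 CPM of members in the SVZ against the striatum of the same 15 mice, 1 point per mouse, by group. Over all 15 mice Fos (r = 0.768) and Arc (r = 0.701) rise together in the 2 tissues, with mice of several groups at both ends. Within the sides of the SVZ Arc gap, which were cut on Arc itself, its r was -0.27 above and -0.19 below.

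Other activity-induced genes were counted in the same comparison of ablated and control mice. Of 38 other rapidly induced genes 36 were tested in each tissue, and 0 were called in either, against 1.59% of genes in the SVZ and 0.694% in the striatum. The 3 most abundant in the SVZ were Plk2, a kinase of synapses, at 0.04 ± 0.17 (log2 fold change ± SE, ablated minus control), Homer1, a scaffold of glutamate receptors, at 0.31 ± 0.16, and Egr3, a further zinc finger factor of the Egr family, at 0.49 ± 0.24. In the striatum they were Ier5, at -0.36 ± 0.19, Homer1 at -0.05 ± 0.17 and Plk2 at 0.25 ± 0.16. The summed level of this list correlated with the members' mean standardized level at 0.789 over SVZ libraries and 0.546 over striatal ones, as a description of libraries with shared depth and composition.

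Genes above and below the members in the pathway were counted likewise. Of 32 genes of dopamine, glutamate, cAMP and MAP kinase signalling that lead to these genes 0 were called in either tissue, against 1.59% of genes in the SVZ and 0.694% in the striatum. In the SVZ 8 had an unadjusted p-value under 0.05, against 9.81% of genes. All 8 were higher in ablated mice, where 610 of 16375 genes tested were higher at that level. The SVZ median log2 fold change of the list was 0.25. It was 0.26, 0.30 and 0.10 for markers of medium spiny neurons, cortical excitatory neurons and neurons in general. In the striatum 2 of the 32 were higher and 1 lower at an unadjusted p-value under 0.05, against 10.5% of genes. Of 14 tested partners, such as other AP-1 subunits and the Egr corepressors Nab1 and Nab2, 0 were called in either tissue, and of 13 heat shock genes, which respond to cell stress, also 0. Of genes that follow activity more slowly, 0 of 16 tested were called in the SVZ, against 1.59% of genes, and 2 of 18 in the striatum, against 0.694%. These were the neuropeptide genes Cartpt, which was higher in ablated mice by 1.74 ± 0.51 (adjusted p = 0.176 by edgeR), and Crh, by 1.04 ± 0.32 (adjusted p = 0.203).

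Markers of dividing precursor cells and neuroblasts, and of cells that line the ventricle, were called in the same SVZ libraries. Of 13 neuroblast markers 5 were called lower in the SVZ of ablated mice and of 12 genes of dividing cells 4, among them Igfbpl1 at -7.03 ± 1.18 (adjusted p = 0.071 by edgeR) and Top2a at -4.46 ± 0.90 (adjusted p = 0.237). Also 3 of 10 ependymal and 6 of 11 choroid plexus markers were called lower. Of all 16375 genes tested in the SVZ 199 were called lower. Control levels of the called choroid plexus genes varied by more than their mean, as Ttr did at 24756 ± 42305 CPM (SD). The control libraries rich in Ttr were those of mice P1, T3 and P2, described above, and their part in these calls was not tested. In the striatum Gfap, of astrocytes, was called lower (-1.57 ± 0.37), as was Ttr. Striatal Ttr made up 0.142% of the counts in control mouse T2 and at most 0.0030% in any other library, so that its control level came mostly from mouse T2. In the striatum 3 of 10 oligodendrocyte markers were lower at an adjusted p-value under 0.05 by edgeR, where 28 of 15419 genes tested passed that threshold in either direction. Of 15 medium spiny neuron markers, 12 of cortical excitatory neurons and 10 of neurons in general, 0 were called in either tissue, and none was at 0 in all libraries. Summed medium spiny markers ran from 6244 to 19460 CPM in ablated and from 7472 to 15435 CPM in control SVZ, and from 12309 to 15244 CPM and from 6481 to 16454 CPM in the striatum. The part of these cell types in the members' levels was not tested.

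The genes whose pattern over libraries was most like that of the members were found by their mean r with the 10 members. In the SVZ they were led by Btg2, which restrains cell division, with a mean r of 0.719, and included Dusp1, a phosphatase of MAP kinases, at 0.699 and Trappc3 at 0.673. In the striatum they were led by Fosl2, an AP-1 subunit, at 0.543, followed by Kctd7 at 0.515, Samd9l at 0.481, which had only 0 to 8 counts per library, and Dusp1 at 0.479. Btg2, Dusp1 and Fosl2 belong to the list of rapidly induced genes, and Dusp1 was among the first 4 in both tissues.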

How the data were processed

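The values are counts of reads per gene, deposited by the authors without normalization in 1 table per tissue. Per the authors' methods and the submitters' processing notes, single-end reads were trimmed with Trimmomatic, aligned with STAR 2.5.3a to mm10 with Gencode annotation and counted with featureCounts. The strand setting is not given in the sources used here. Tissues were fitted apart, since their library kits differ. Genes above 1 CPM (per 1e6 counts) in 3 or more libraries were kept, normalized with TMM factors and tested with edgeR 4.0.16 (quasi-likelihood test, R 4.3.3), as ablated against pooled controls and in a fit of 4 groups. P-values were adjusted over all genes tested by the Benjamini-Hochberg method. A call needs a 2-fold or larger difference with a nominal p-value no higher than 0.01, the thresholds of the study. The 3-degree-of-freedom test of any difference among the 4 groups has no fold threshold. Log2 CPM used a prior count of 2. The tissue difference was fitted with limma 3.58.1, DESeq2 1.42.0 was an alternative, and correlations used 100000 two-sided permutations with Python 3.11.15 (numpy 2.4.6, pandas 2.3.3; figures with matplotlib 3.10.9). The fits of ablated against pooled control mice, of NestinTK-GCV+ minus NestinTK-PBS+ and of the tissue difference were tested on simulated data, and the other contrasts of the 4 groups were not. Genes named beside the members are called genes of a list, at most 6 each, the 3 most abundant of the rapid and partner lists, the 10 most like the members, and the 3 highest and 3 lowest pairs; some of these are left out for length, and 1 is not reported here. The members and lists were chosen with earlier results of these data known. Groups came from genotype and treatment in the sample labels. Reads were amplified and carry no molecular identifiers, so that counts overstate the number of molecules seen. Depth was 8.36 to 21.1 M counts (M, 1e6) in the SVZ and 2.63 to 4.69 M in the striatum. Alternatives were other size factors, no filter, the mouse number series as covariate or subset, each control group alone, thinned counts, limma-voom, DESeq2 and the loss of single mice or of libraries that stand apart.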

Additional observations from a re-analysis of the deposited data

Results flagged for a closer look

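These values are given because 1 mouse lay far from the others of its group, by Dixon's test at the 95% level, which chance passes in about 1 of 20 groups; 6 of 60 groups of member values passed it. In the SVZ of ablated mice, mouse A3 had 428 CPM of Arc, where the next highest had 68.5 CPM, and 156 CPM of Nr4a1, where the next highest had 33.2 CPM. In the SVZ of NestinTK+PBS+ mice, mouse T4 had 1.93 CPM of Fosb, where the next lowest had 18.0 CPM. Among the 10 control mice, mouse G1 had 8.83 CPM of Egr4 in the SVZ, where the next lowest had 44.2 CPM. In the striatum of control mice, mouse P2 had 1133 CPM of Egr1 and 108 CPM of Nr4a1, where the next highest, mouse T3, had 643 and 41.7 CPM.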

How the results depend on the processing

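In the SVZ 0 members were called for ablation under each of the 29 alternatives tried, and in the striatum 0 except 1, Egr2, with NestinTK-PBS+ mice as the only controls. Small changes took the other sign, none of them called. In the SVZ Egr1 was at -0.21 with the mouse number series as covariate and at -0.21 in series 40 alone. With only NestinTK-GCV+ controls SVZ Egr1 was at -0.16, Fos at 0.047 and Ier2 at 0.25, with only NestinTK-PBS+ controls Arc at 0.27 and Nr4a1 at 0.39, and with only NestinTK+PBS+ controls Npas4 at 0.10. Under limma-voom SVZ Npas4 was at 0.24 and Nr4a1 at 0.22, and without the 3 control libraries highest in Ttr at 0.063 and 0.033. Without the 3 libraries lowest in medium spiny markers, chosen after seeing the data, SVZ Junb was at 0.037, Arc at 0.19 and Nr4a1 at 0.38. In the striatum Nr4a1 was at 0.28 with series as covariate and 0.28 in series 40 alone, 0.74 with only NestinTK-GCV+ controls, 0.014 against the mean of the 3 control groups and 0.089 under limma-voom. Striatal Ier2 was at 1.23 with only NestinTK-GCV+ controls and 0.0096 against the mean of the 3 control groups, and Npas4 at 0.24 with only NestinTK-PBS+ controls and 0.14 under limma-voom. With each mouse left out in turn, SVZ Egr1 ran from -0.34 to 0.25, Fosb from -0.086 to 0.86 and Nr4a1 from -1.01 to 0.17, and striatal Npas4 from -0.40 to 0.16 and Nr4a1 from -0.26 to 0.30. For contrasts of the 4 groups, with series as covariate 1 member, Npas4, was called in the SVZ for NestinTK+PBS+ minus NestinTK-PBS+. In the striatum, with no filter on low counts 3 members (Egr2, Nr4a1 and Ier2) were called for NestinTK-GCV+ minus NestinTK-PBS+, 1 (Egr2) for NestinTK+PBS+ minus NestinTK-PBS+, 1 (Nr4a1) for the interaction and 6 for any difference among groups, where 1886 of 23382 genes were called against 1075 of 15419. With DESeq2 0 were called for NestinTK-GCV+ minus NestinTK-PBS+. As single mice were left out, striatal members called ran from 0 to 1 for NestinTK+GCV+ minus NestinTK-GCV+, 0 to 2 for NestinTK+PBS+ minus NestinTK-PBS+, 0 to 3 for NestinTK-GCV+ minus NestinTK-PBS+, 0 to 1 for the interaction and 0 to 3 for any difference. The highest of these counts came without mouse P1, or for the first without A3 or G2. Without mouse P2 Npas4 was called for both contrasts with NestinTK-PBS+ mice and Arc for the interaction. Pairs of SVZ members with r of at least 0.5 ran from 29 to 39 as single mice were left out, and striatal ones from 10 to 22, and after removal of group means there were 38 and 23. All genes called for ablation numbered 260 in the SVZ and 107 in the striatum, and 1342 and 330 with no filter, 493 and 139 with DESeq2 and 171 and 190 with limma-voom. With only NestinTK-GCV+ controls they numbered 74 and 365. Libraries were paired by mouse between the tissues. No pairing between groups was possible because the groups hold different mice and their replicate numbers come only from accession order. Groups of 3 to 5 mice and the spread between mice limit what could be detected, in the SVZ most of all.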
